A study of Homo sapiens with 2 samples.

Results

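Translation initiation and elongation factors were followed through 2 RNA libraries of 95D cells, an established human lung cancer line, in the wild-type state. The glucose-free library came from cells kept for 48 h in glucose-free medium and the glutamine-free library from cells kept for 48 h in glutamine-free medium, both with dialyzed serum and both after 24 h in complete medium. Which library is which was taken from the sample titles, as the labels do not fully settle it. Total RNA was used and ribosomal RNA was depleted. The title and design text of the series describe RNA pulled down with an antibody to ALKBH5 and an input control, but neither sample's labels say which of these its library is, so binding to ALKBH5 is not analysed here. The members are the transcript rows whose gene name begins with EIF or EEF followed by a digit, holds no hyphen and carries a number. They were 147 of the 18663 transcript rows with a value, under 46 of 9253 gene names, all 46 of them protein-coding symbols in RefSeq. A further 95 rows listed under such names held a mark in place of a number, and 7 names (EEF2K, EIF1AD, EIF2AK1, EIF3J, EIF3L, EIF4E1B and EIF5B) had no row with a value. The rows are labelled as long non-coding RNA gene names, so their values need not be messenger RNA levels.

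Protein synthesis begins when a small ribosomal subunit, carrying the initiator tRNA on the GTP-binding factor eIF2, is brought to the capped end of a messenger RNA by eIF3 and the eIF4 proteins and scans to the start codon. The elongation factors then deliver each aminoacyl-tRNA (eEF1A, recharged by the eEF1B subunits) and move the ribosome along (eEF2). In cells short of nutrients this machinery is held back mainly at 2 points: kinases that phosphorylate eIF2, of which EIF2AK4 (GCN2) senses uncharged tRNA, and the mTORC1 pathway, which acts on proteins that bind the cap-binding factor eIF4E. Many messenger RNAs of the translation machinery begin with a C followed by an unbroken run of C and T, the terminal oligopyrimidine tract, which makes their translation depend on mTORC1.

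That tract is the sequence feature best known for this gene family, so the annotated start of the members was read from RefSeq promoters of build GRCh38.p14. For 39 of the 46 names a promoter was listed, with 52 starts in all. EEF1A2, EEF1D, EEF2KMT, EIF3A, EIF3E, EIF3G and EIF3H had none. A C at the annotated start followed by at least 4 bases that are each C or T, read on the gene's own strand and at that position only, stood at 12 of the 52 starts (23.1%). It stood at 4.07% of all 35116 starts in the table. By gene, 12 of 39 members (30.8%) had such a tract at any listed start, beside 5.14% of all genes and 7.74% of the names with a value here. The windows shown run from 10 bases before the annotated start to the 20 bases from it on, with the tract in capitals. They are those of the 9 members that stood above 0 in both libraries and had a promoter, and of EEF2, EEF1B2 and EIF3F as examples of members above 0 in the glutamine-free library alone. These examples all have the tract, whereas 9 of the 30 members with a promoter that were listed at 0 in the glucose-free library do. Where no tract was found at any of several starts, the first listed one is shown.
EEF1A1, chr6:73521013-73521042, minus strand: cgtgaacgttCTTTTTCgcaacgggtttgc
EEF2, chr19:3985444-3985473, minus strand: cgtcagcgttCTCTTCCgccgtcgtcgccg
EEF1B2, chr2:206159885-206159914, plus strand: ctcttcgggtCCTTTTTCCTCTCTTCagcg
EIF2S3, chrX:24054946-24054975, plus strand: gatttccttcCTCTTTTggcaacatggcgg
EIF3F, chr11:7987327-7987356, plus strand: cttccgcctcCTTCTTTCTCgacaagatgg
EIF4A2, chr3:186783567-186783596, plus strand: gcgccgctgtCTTTTCagtcgggcgctgag
EIF1, chr17:41688875-41688904, plus strand: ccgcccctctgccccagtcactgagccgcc
EIF3C, chr16:28688548-28688577, plus strand: tcccacccccgtggcaggcagccctgcacc
EIF4A1, chr17:7572815-7572844, plus strand: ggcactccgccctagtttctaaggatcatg
EIF4G1, chr3:184314596-184314625, plus strand: gcggggagccggaaatggttgtggactacg
EIF4G2, chr11:10807977-10808006, minus strand: tgtcggaagcacttccctaacttgcgcctg
EIF4H, chr7:74174346-74174375, plus strand: ctcgctcaccctggttcctctcggagcgga
The tracts were 5 to 16 bases long, the longest at a start of EEF1B2. The other members with one were EIF2A, EIF2D, EIF3D, EIF3K, EIF3M and EIF4B. By role, the tract was found in 3 of 4 elongation factors with a promoter, 4 of 7 eIF3 subunits, 3 of 11 start codon and ternary complex factors and 2 of 10 cap-binding and scanning factors. It was found in 0 of the 3 eIF2 kinases. An annotated start can differ from the start used in these cells, and a match is a feature of the sequence and not a measured site.

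The values are read numbers times 1 factor per library, and are not divided by transcript length. A larger value under 1 name than under another is therefore a larger number of reads and not a higher level. Each condition has 1 library, so nothing was tested, no p-value is given and no value has a replicate error. The rows with a value held 42827 reads, recovered from the steps between values, in the glucose-free library and 1442570 in the glutamine-free library. This is a 33.7-fold difference in tabulated reads, and the full depth of the libraries is not given. Of these rows, 2.54% and 99.5% stood above 0 in the glucose-free and the glutamine-free library. Below, a share of a library is a share of its recovered reads. Of 10 epithelial and lung markers looked for, 5 had a value, 2 of them above 0 in the glucose-free library and all 5 above 0 in the other. KRT8 stood at 199.8 and 143 and NAPSA at 161 and 18.9 in the glucose-free and the glutamine-free library, while KRT7, KRT18 and KRT19 were listed at 0 and at 9.47 to 75.1; their part in the results was not tested. EPCAM, CDH1, NKX2-1, SFTPB and SFTPC had none.

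Of the 147 member rows, 15 stood above 0 in the glucose-free library (10.2%), and all 147 did in the glutamine-free library. By name, 10 of 46 members were above 0 in the glucose-free library (21.7%), against 4.25% of all names. These were the elongation factor EEF1A1, the start codon factors EIF1 and EIF2S3, the eIF3 subunits EIF3C and EIF3E, and the cap-binding and scanning factors EIF4A1, EIF4A2, EIF4G1, EIF4G2 and EIF4H. Summed by name, the members carried more reads than the table as a whole in the glutamine-free library, with a median value of 63.6 beside 20.5. By row the medians there were close, at 19 reads for member rows and 17 for all rows above 0. Among names at 100 or more there, 9 of 18 members and 13.3% of all names were above 0 in the glucose-free library. Among names under 100 there, 1 of 28 members was, EIF4G2, and 2.54% of all names. How far the larger values, the depth of the library or the choice of rows by the authors set these shares was not tested.

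**Figure D1:**
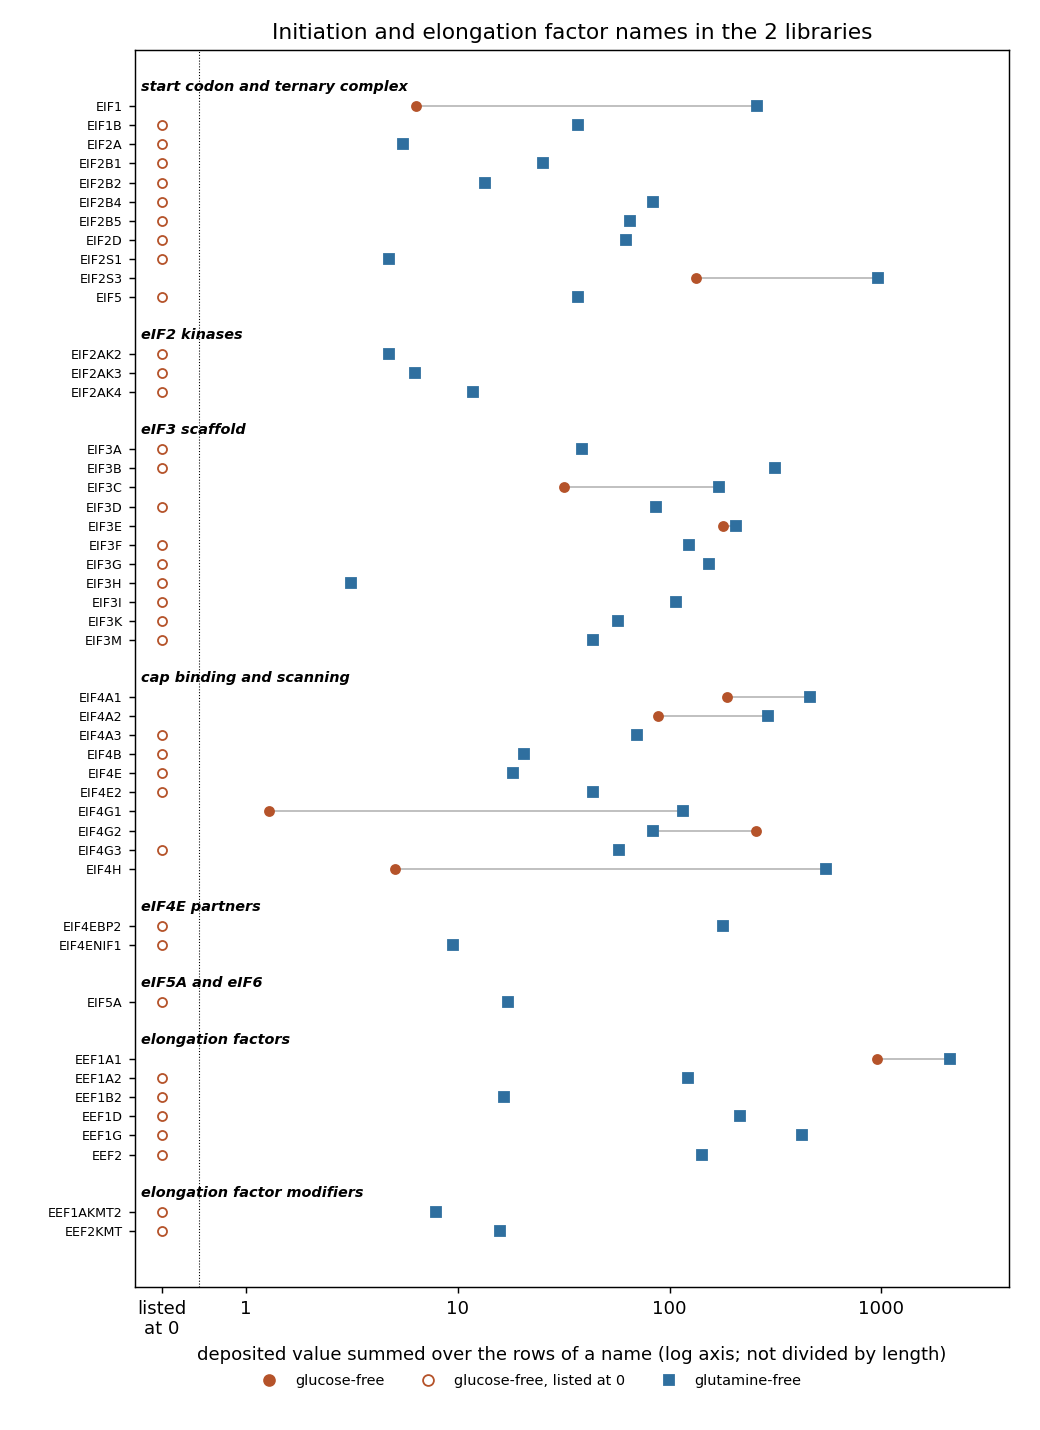
Deposited values of the 46 factor names, summed over the transcript rows of a name, in the glucose-free (circles) and glutamine-free (squares) library, on a log axis and grouped by role. Open circles at the left mark the 36 names listed at 0 in the glucose-free library, and EIF4G2 is the 1 name whose circle lies to the right of its square.

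Of the reads in rows with a value, members held 3.40% in the glucose-free library (1455 reads, 95% Wilson interval 3.23 to 3.57%). In the glutamine-free library they held 0.688% (9920 reads, 0.674 to 0.701%). All such intervals reflect counting error only, as reads counted without molecular barcodes may be copies of 1 molecule. The most abundant name, the unnamed locus XLOC_220679, held 5566 reads in the glucose-free and 559463 in the glutamine-free library. Without it the members' shares were 3.90% and 1.12%. EEF1A1 alone held 51.7% of the members' reads in the glucose-free library (49.1 to 54.2%) and 26.8% in the glutamine-free library (25.9 to 27.6%). The split of the members' reads among roles is the same under any scaling of a library. Start codon and ternary complex factors held 7.63% (6.37 to 9.11%) of it in the glucose-free library and 19.8% (19.1 to 20.6%) in the glutamine-free library. The eIF3 subunits held 11.4% (9.88 to 13.1%) and 16.6% (15.9 to 17.4%). Cap-binding and scanning factors held 29.3% (27.0 to 31.7%) and 21.8% (21.0 to 22.6%). Elongation factors held 51.7% and 38.5% (37.5 to 39.4%). The intervals leave out the spread between samples, which 1 library per condition does not give. EEF1A1 bears on these parts. Without it, elongation factors held 0% and 16.0% of the remaining reads, which turns their direction. The eIF3 subunits held 23.6% and 22.7%, so that their difference nearly vanished. Start codon factors then held 15.8% and 27.1%, and cap-binding and scanning factors 60.6% and 29.8%. The cap-binding and scanning part leans on EIF4G2. It held 203 of that role's 426 reads in the glucose-free library and 106 of 2165 in the glutamine-free library. The split without EIF4G2 was not computed, so the direction of that part is not shown to hold without it.

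**Figure D2:**
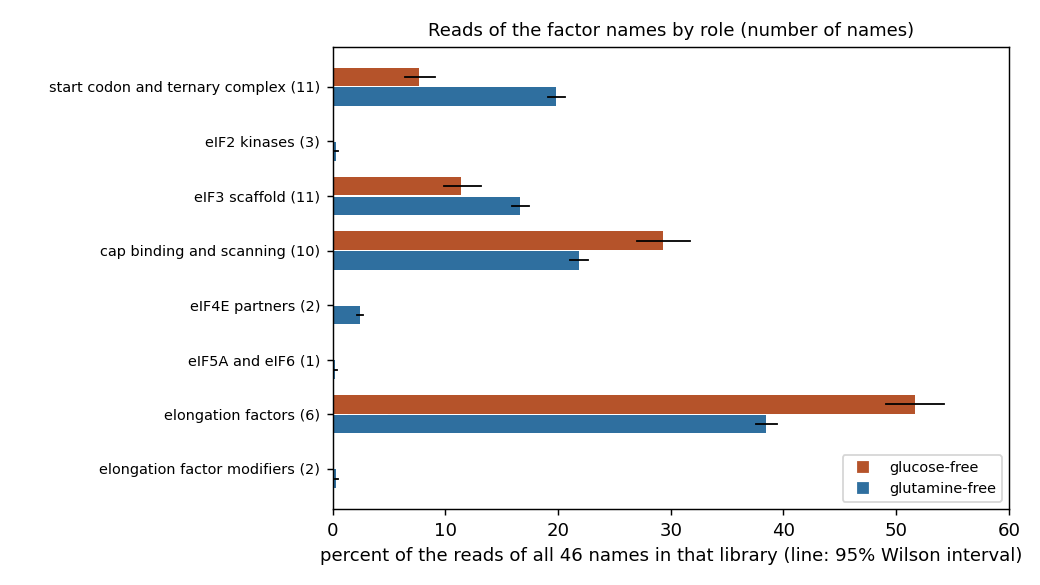
Percent of the reads of all 46 factor names that fell to each role, for 1455 reads in the glucose-free and 9920 in the glutamine-free library, with the number of names in brackets and 95% Wilson intervals as lines. Elongation factors and cap-binding and scanning factors took a larger part in the glucose-free library, and start codon factors and eIF3 subunits a larger part in the other. Without EEF1A1 the elongation factors (0% and 16.0%) go the other way and the eIF3 subunits (23.6% and 22.7%) are nearly equal. In the cap-binding and scanning role, EIF4G2 alone held 203 of 426 reads in the glucose-free and 106 of 2165 in the glutamine-free library.

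Among the elongation factors, EEF1A1, which carries aminoacyl-tRNA to the ribosome, stood at 951 in the glucose-free and 2100.2 in the glutamine-free library. Its reads came from different transcript rows in each. A single row held 925 of the 951 (732 reads) in the glucose-free library, and the same row held 0.772, or 1 read, in the glutamine-free library. The rows that led in the glutamine-free library, at 818 and 679, were listed at 0 in the other. A further pair stood above 0 in both, at 8.87 and 256 and at 16.5 and 221. The last row stood at 0 and 125. EEF1A1 has many processed pseudogenes, and the files hold no transcript identifiers, so which transcript each row is cannot be told apart here. The other 5 elongation factors were listed at 0 in the glucose-free library. In the glutamine-free library EEF1G, the gamma subunit of the exchange complex that recharges eEF1A, stood at 422 on 1 row. Its partners EEF1D and EEF1B2 stood at 214 over 5 rows and 16.6 over 3 rows. EEF2, which moves the ribosome by a codon, stood at 143 over 4 rows of 28.5 to 48.2. EEF1A2, the form of eEF1A typical of muscle and neurons, stood at 123, nearly all of it on 1 row of 121. So all 6 elongation factors had reads in the glutamine-free library, and 1 of them, EEF1A1, in the glucose-free library. At its share of the glutamine-free library, EEF1G would have had 15.9 reads among those recovered in the glucose-free library, and EEF1D 8.05. A 0 at such a level was common, as 13.3% of all names at 100 or more in the glutamine-free library were above 0 in the other.

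Among the factors that carry the initiator tRNA and set the start codon, EIF2S3, the gamma subunit of eIF2, stood at 134 (106 reads) in the glucose-free and 963.5 (1218 reads) in the glutamine-free library on its 1 row. EIF1, which guards start codon choice, stood at 6.34, or 5 reads, and 259. The row of EIF1 above 0 in the glucose-free library was the one that held 256 of the 259 in the other. These were the 2 of 11 names of this role above 0 in the glucose-free library. EIF2S1, the alpha subunit of eIF2 that the stress kinases phosphorylate, stood at 0 and 4.73. The subunits of eIF2B, the exchange factor that phosphorylated eIF2 blocks, were all listed at 0 in the glucose-free library. In the glutamine-free library EIF2B4 stood at 83.8, EIF2B5 at 64.8, EIF2B1 at 25.3 and EIF2B2 at 13.4. EIF5, which makes eIF2 hydrolyse its GTP, and EIF1B, a close relative of EIF1, both stood at 37.1 there. EIF2D and EIF2A, which can bring initiator tRNA without eIF2, stood at 62.5 and 5.52. The kinases themselves rested on few reads in the glutamine-free library and on none in the other. EIF2AK4 stood at 11.8 (15 reads), EIF2AK3 (PERK, the kinase of endoplasmic reticulum stress) at 6.31 (8 reads) and EIF2AK2 (PKR, activated by double-stranded RNA) at 4.73 (6 reads).

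Of 11 subunits of eIF3, the scaffold that joins the small ribosomal subunit to the messenger RNA, EIF3E and EIF3C stood above 0 in the glucose-free library. EIF3E was at 178 there, all on 1 row, and at 206 in the glutamine-free library, where the same row led at 130 and 4 others held 2.35 to 37.2. It was the 1 member name within 2-fold between the libraries as deposited. EIF3C stood at 31.6 (25 reads) on 1 row, which held 104 of its 171 in the glutamine-free library. Reads of EIF3C cannot be told from those of its near-identical copy EIF3CL. The ratio of EIF3E to EIF3C reads was 5.64 (95% counting interval 3.69 to 8.63) in the glucose-free and 1.20 (1.00 to 1.44) in the glutamine-free library. The other 9 subunits were listed at 0 in the glucose-free library. EIF3B, a core subunit, stood at 316 in the glutamine-free library over 7 rows of 7.10 to 104, EIF3G at 154, EIF3F at 123 and EIF3I at 107. The others were EIF3D at 86.2, EIF3K at 56.9, EIF3M at 43.5, EIF3A at 38.7 and EIF3H at 3.15. Subunits of 1 complex thus differed in whether any read was listed in the glucose-free library. EIF3B had 400 reads in the glutamine-free library and EIF3E had 260 there, yet EIF3E was seen in the glucose-free library and EIF3B was not.

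The cap-binding and scanning role had the most names above 0 in the glucose-free library, 5 of 10. EIF4A1, the RNA helicase of the cap-binding complex, stood at 187 there and 461 in the glutamine-free library. As for EEF1A1, 1 row carried 96.6% of it in the glucose-free library, at 181, and that row held only 10.3 in the glutamine-free library. There the reads were spread over 10 rows, the largest of which, at 103, was listed at 0 in the other library. EIF4A2, its close paralog, stood at 88.5 on 1 row and at 292 over 13 rows, led in both libraries by the same row. The ratio of EIF4A1 to EIF4A2 reads was 2.11 (1.59 to 2.81) in the glucose-free and 1.58 (1.38 to 1.79) in the glutamine-free library. EIF4G2, a relative of the EIF4G1 scaffold that does not bind eIF4E, was the 1 member at least 2-fold higher in the glucose-free library, at 257 against 83.7. It had 203 reads in the glucose-free and 106 in the glutamine-free library. It thus also led in plain read number in the glucose-free library, where the rows with a value held far fewer reads in all. The difference lay on 2 of its 8 rows, at 164 and 7.10 and at 92.3 and 35.6. Its 6 other rows were listed at 0 in the glucose-free library and at 2.35 to 19.8 in the other. EIF4G1 itself went the other way, with 1 read in the glucose-free library (1.29) and 147 in the glutamine-free library (116). The ratio of EIF4G2 to EIF4G1 reads was 203 (28.5 to 1448) in the glucose-free and 0.721 (0.562 to 0.926) in the glutamine-free library. EIF4H, which stimulates the helicase, stood at 5.08, or 4 reads, and 548. Its largest row, at 428, was listed at 0 in the glucose-free library. Listed at 0 there were EIF4A3, a helicase of the exon junction complex that shares the name, at 70.4 in the glutamine-free library, EIF4G3 at 57.7, EIF4B at 20.5 and the cap-binding proteins EIF4E2 at 43.5 and EIF4E at 18.2.

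**Figure D3:**
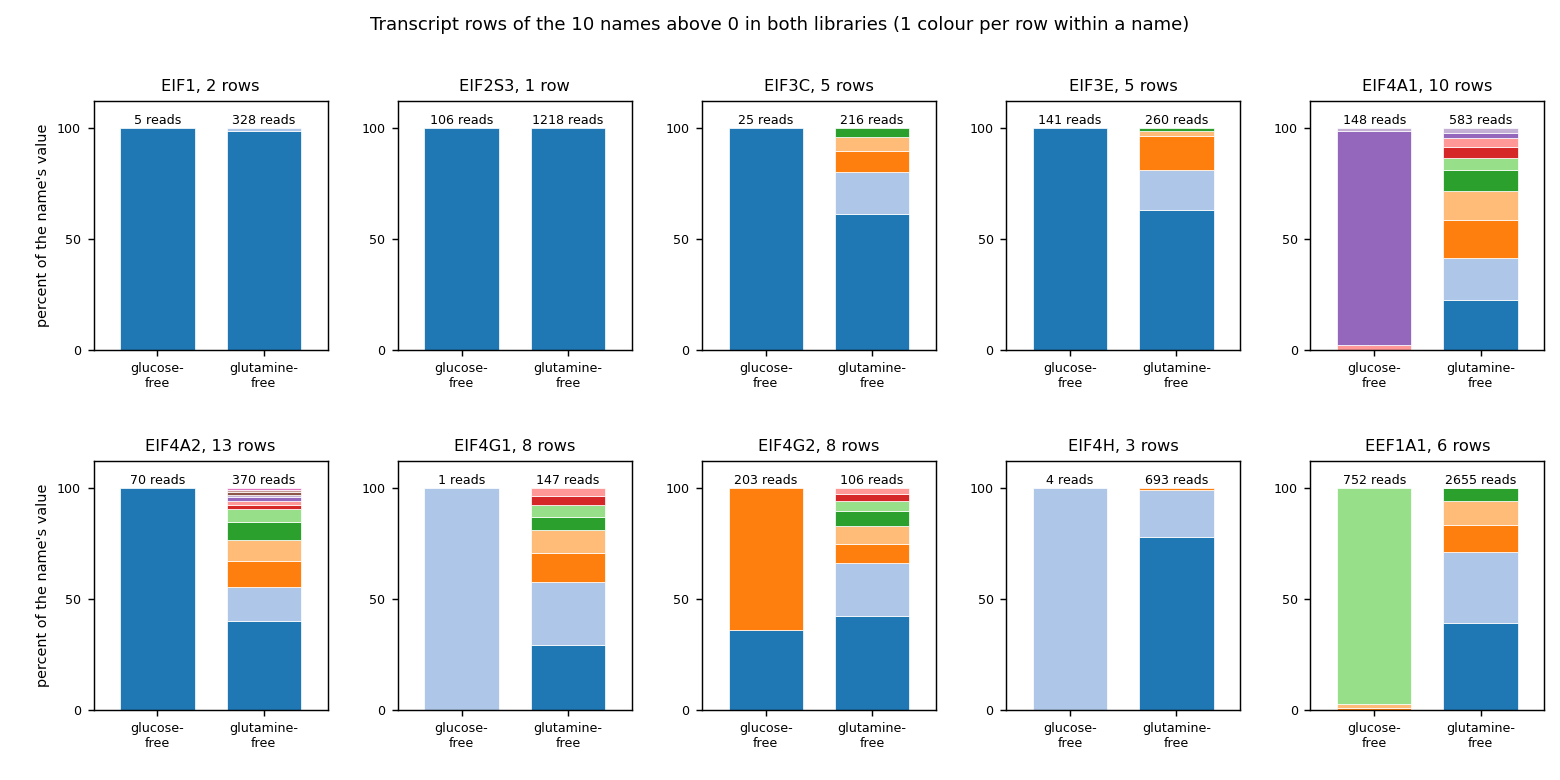
Share of each name's deposited value that fell on each of its transcript rows, in percent, for the 10 names above 0 in both libraries, with 1 colour per row within a name and the reads of the name above each bar. In the glucose-free library 1 row held over 95% of every name except EIF4G2, and for EEF1A1 and EIF4A1 that row was a minor one in the glutamine-free library.

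The remaining members were listed at 0 in the glucose-free library. EIF4EBP2, which holds eIF4E away from the cap complex until mTORC1 phosphorylates it, stood at 178 (225 reads) in the glutamine-free library. EIF4ENIF1, which carries eIF4E into the nucleus, stood at 9.47. EIF5A, the hypusine-bearing factor that helps ribosomes past difficult stretches, stood at 17.4. The methyltransferases EEF2KMT and EEF1AKMT2, which act on eEF2 and eEF1A, stood at 15.8 and 7.87.

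On the scale of log2(value + 1), 44 of 46 members stood at least 2-fold higher in the glutamine-free library, a background of 97.4% of all names, and 1 was at least 2-fold higher in the glucose-free library, a background of 1.42%. Among the 44, 36 had a listed 0 in the glucose-free library and count through the added 1, not through a measured fold. Both shares lay near the background. Among the 10 members above 0 in both libraries, 8 stood at least 2-fold higher in the glutamine-free library, against 42.2% of such names, and 1 in the glucose-free library, against 25.4%. Their median log2 difference was 2.05, with a range of -1.60 to 6.50, against 0.61 over the 351 names above 0 in both. Over all 46 members, the counts with each library rescaled to a sum of 1000000 were 38 (96% of all names) and 7 (3.75%), and with differences centred on the median of all names 20 (31.5%) and 13 (29.1%). For the 10 members, rescaling turned the direction for most: 2 were then at least 2-fold higher in the glutamine-free library (5.98% of such names) and 7 in the glucose-free library (86.9%). With log2 differences centred on the median of names above 0 in both, the numbers were 6 (30.2%) and 1 (34.2%).

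EIF4H and EIF4G1 stood at least 2-fold higher in the glutamine-free library under all 3 of these scalings, with log2 differences of 6.50 and 5.68 as deposited and 2.34 and 2.05 rescaled, and rested on 4 and 1 reads in the other library. EIF1 followed at 5.15 and 0.95. EIF4G2 was at least 2-fold higher in the glucose-free library under all 3, at -1.60 as deposited, -2.21 centred and -5.99 rescaled. For EEF1A1 the log2 difference was 1.14 as deposited, 0.54 centred and -3.25 rescaled. EIF4A1 gave 1.30, 0.69 and -3.09, and EIF4A2 1.71, 1.11 and -2.67. EIF2S3 gave 2.84, 2.23 and -1.55, EIF3C 2.40, 1.79 and -1.96, and EIF3E 0.20, -0.40 and -4.18. Which library is higher is therefore not settled for these 6. As shares of reads, EIF4G1 and EIF1 are not settled by counting either. EIF4G1 held 0.00233% (0.000412 to 0.0132%) in the glucose-free and 0.0102% (0.00867 to 0.0120%) in the glutamine-free library. EIF1 held 0.0117% (0.00499 to 0.0273%) and 0.0227% (0.0204 to 0.0253%). What no scaling alters is the order of the named members, with EIF4H, EIF4G1 and EIF1 at 1 end and EIF4G2 at the other. The order among EIF4H, EIF4G1 and EIF1 rests on 4, 1 and 5 reads in the glucose-free library, and the intervals of their ratios overlap. Reads of EEF1A1 were 3.70 times those of EIF4G2 (3.17 to 4.33) in the glucose-free and 25.0 times (20.6 to 30.4) in the glutamine-free library. They were 188 times those of EIF4H (70.4 to 502) and 3.83 times (3.52 to 4.17).

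**Figure D4:**
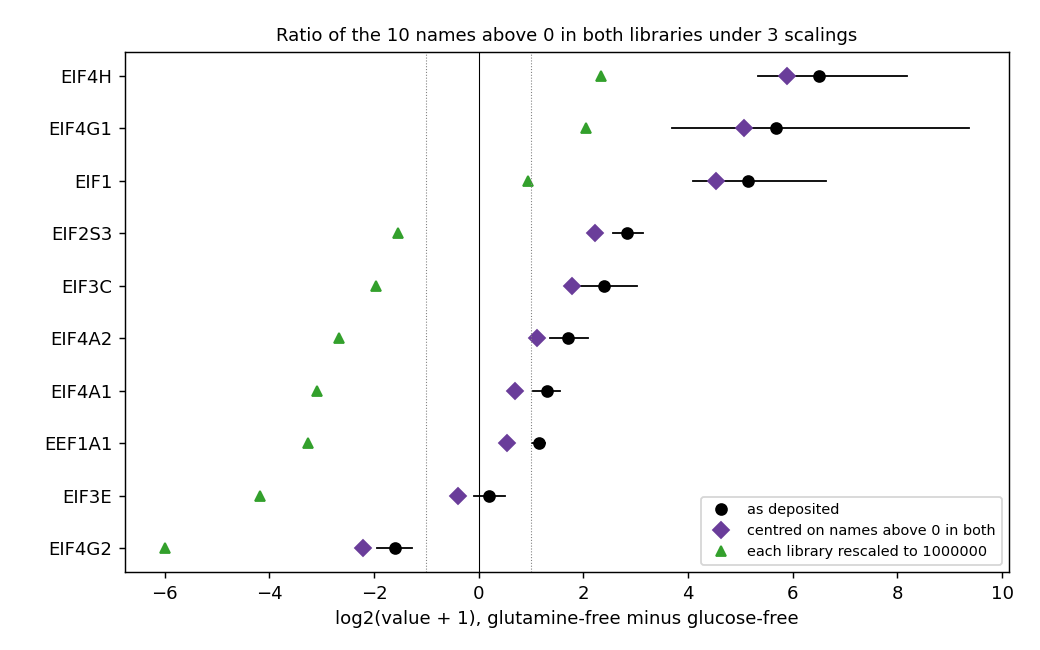
Difference in log2(value + 1), glutamine-free minus glucose-free, of the 10 names above 0 in both libraries, as deposited, centred on the median of such names and with each library rescaled to 1000000; black lines are 95% counting intervals of the deposited ratio without the added 1. EIF4G2 lies left of the lower 2-fold line and EIF4H and EIF4G1 lie right of the upper one under all 3 scalings, while EEF1A1 changes sides.

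Row by row, 4 of the 15 member rows above 0 in both libraries stood at least 2-fold higher in the glucose-free library as deposited, against 40% of all such rows, and 9 in the glutamine-free library, against 30.1%. The 4 were the leading rows of EEF1A1 and EIF4A1 and both rows of EIF4G2. In the glucose-free library, 8 of the 15 rows had 25 reads or more, and 7 had 1 to 13. Of the 9 members above 0 in both with several rows, the largest row differed between the libraries in 5 (EEF1A1, EIF4A1, EIF4G1, EIF4G2 and EIF4H), or 55.6%. The share over all such names was 61.2%, so a change of leading row was near the background. For EIF4G1 and EIF4H the change rests on 1 and 4 reads in the glucose-free library. The leading rows of EIF4G1 in the glutamine-free library had 43 and 42 reads.

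Whether a member was above 0 in the glucose-free library was set against its sequence and position. The oligopyrimidine tract was found in 3 of 9 members above 0 there (EEF1A1, EIF2S3 and EIF4A2) and in 9 of 30 listed at 0. Over all names above 0 there with a promoter the share was 12.5%. By position, 9 of 46 members had a small nucleolar RNA gene inside their span in RefSeq, against 4.45% of the names with a RefSeq entry. They were 4 of the 10 above 0 in the glucose-free library (EIF4A1, EIF4A2, EIF4G1 and EIF4G2) and 5 of the 36 listed at 0 (EEF1B2, EEF2, EIF2AK4, EIF3A and EIF5). Over all names above 0 in the glucose-free library the share was 10.6%. EIF4A2 held SNORD2, SNORA4, SNORA63, SNORA63B and SNORA81, and EIF4A1 held SNORD10, SNORA48 and SNORA67. Whether reads of such small RNAs entered the values was not tested.

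Other genes of translation and of its nutrient control were taken from lists chosen with earlier results of these data known. Of 23 listed factors of termination, recycling and messenger RNA binding, 12 had a value. Of these 12, 4 were above 0 in the glucose-free library, against 4.25% of all names. LARP1, which binds the oligopyrimidine tract, stood at 142 there and 939 in the glutamine-free library. PABPC1 and PABPC4, the poly(A)-binding proteins that join EIF4G1 to the tail, stood at 163 and 799 and at 46.8 and 243. DDX3X, a helicase that aids scanning, stood at 131 and 755. All 12 stood at least 2-fold higher in the glutamine-free library as deposited, as did 97.4% of all names, and the 4 were higher in the glucose-free library after rescaling, with log2 differences of -1.67 for LARP1, -2.10 for PABPC1, -2.02 for PABPC4 and -1.87 for DDX3X. GCN1, the partner through which EIF2AK4 senses stalled ribosomes, was listed at 0 and at 349.

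The other lists had no member above 0 in the glucose-free library, and every measured member was above 0 in the other. Of all names 4.25% and 99.5% were above 0 there, so these counts lie near the background. In the mTORC1 list, with 14 of 26 measured, DDIT4, an inhibitor of mTORC1 induced by stress, stood at 984 in the glutamine-free library. TSC2 stood there at 439.5, TSC1 at 118 and RPTOR at 98.8. Of 11 listed genes of the integrated stress response outside the EIF names, 3 had a value. They were PPP1R15B, which helps dephosphorylate eIF2, at 86.2, ATF3 at 57.7 and IMPACT at 50.6. ATF4 and DDIT3 were among those without a value. The mitochondrial factors with a value, 4 of 11 listed, were TUFM at 115, MRRF at 15.0, GFM1 at 8.68 and GFM2 at 3.13. Of the genes for building diphthamide on eEF2, 4 of 7 listed had a value. DPH1 stood at 130.4, DPH5 at 71.2, DPH7 at 24.5 and DNAJC24 at 11.1. The median log2 difference was 4.40 for the termination and binding factors, 5.06 for the mTORC1 list, 5.88 for the stress response, 3.64 for the mitochondrial factors and 5.42 for the diphthamide enzymes. Over all names it was 4.32, and over the 46 members 5.20. Because nearly all of these names were listed at 0 in the glucose-free library, such medians carry mainly the level in the glutamine-free library.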

How the data were processed

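Per the file headers, rows carry long non-coding RNA gene names and 1 value per library, with no unit, and many of these names are those of protein-coding genes; such values need not be messenger RNA levels. The deposited values are scaled read numbers, by their equal steps of 1.26 (glucose-free) and 0.791 (glutamine-free). The header of the glucose-free file writes Glu, and its group was taken from the sample title; both samples' descriptions name the same table column, so the labels do not fully settle which library is which. The submitters' processing notes name HISAT2 2.0.5, StringTie and hg38 without roles; the sources used here give no counting tool, annotation, filter or scaling. Values under 1e-09 were set to 0, rows with a mark left out, and rows of a name summed. Reads were recovered as the value less a fitted offset over the step, with 100% of the values up to 1000 reads, 472 and 18536 of them, within 0.1 of a whole read. Strand use is not stated, so overlapping and antisense genes cannot be told apart. Log2 ratios used a pseudocount of 1 and names at 1 or more in either library; the threshold was 2-fold. Members, lists and markers were chosen with earlier results of these data known. Named were all members by role and, of each list, genes above 0 in the glucose-free library and the 4 largest in the other; windows of EEF2, EEF1B2 and EIF3F were chosen after their values were seen. Calculations were tested on simulated data (Python 3.11.15, NumPy 2.4.6). Alternatives covered scaling, pseudocount, minimum, fold, rows and hyphenated names.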

Additional observations from a re-analysis of the deposited data

How the results depend on the processing

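Scaling decided most comparisons. Members at least 2-fold higher in the glutamine-free library numbered 44 as deposited and 20 with differences centred on the median of all names (31.5% of all names). Those at least 2-fold higher in the glucose-free library numbered 1 as deposited, 7 rescaled to 1000000, 13 centred on all names (29.1% of all names) and 0 at 4-fold, with no test at any threshold. Among the 10 members above 0 in both libraries, rescaling gave 2 and 7; counts over these 10 alone, and counts centred on names above 0 in both, were added after the data were seen. Their median log2 difference went from 2.05 to -2.31 rescaled and -2.26 centred on all names. Under the same settings in that order EEF1A1 gave -3.25 and -3.18, EIF2S3 -1.55 and -1.48, EIF3C -1.96 and -1.92, EIF4A1 -3.09 and -3.02, and EIF4A2 -2.67 and -2.61. Taking the largest row of each name in place of the sum gave -0.18 for EEF1A1, -0.81 for EIF4A1 and 0.40 for EIF4A2, under 2-fold, and 1.05 for the median of the 10. Without the most abundant name of the table, XLOC_220679, the members' share of reads was 3.90% in the glucose-free and 1.12% in the glutamine-free library. Counts of rows and names above 0 stayed within 1.5 times under a minimum of 5 and with hyphenated names; keeping protein-coding names could change nothing, since all 46 are. In the glucose-free library EIF1, EIF4H and EIF4G1 rest on 5, 4 and 1 reads. A listed 0 there was given no upper limit, because the filter behind the rows is not given. At their share of the glutamine-free library, 11 of the 36 members at 0 would have had at least 3 reads. The same count over all names was not made. Of all names at 100 or more in the glutamine-free library, 13.3% were above 0 in the glucose-free library, so most such names were also listed at 0.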

Other observations

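Names of the family with a hyphen, antisense or divergent transcripts beside these genes, were left out by the rule. Of 7 such names 3 had a value, all listed at 0 in the glucose-free library. In the glutamine-free library EIF3J-DT stood at 19.0, EIF1B-AS1 at 7.87 and EIF2AK3-DT at 3.94. EIF3J itself had no row with a value, so that only its divergent neighbour was measured.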
